A study of Rattus norvegicus with 16 samples.

Results

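Transcripts of the subunits of prefoldin, of its relatives and of the R2TP complex were followed in rat hepatoma H35 cells in which *Pdrg1* had been silenced. Some of these subunits share a protein assembly with PDRG1. The members were *Pfdn1*, *Pfdn2*, *Pfdn4*, *Pfdn5*, *Pfdn6*, *Vbp1*, *Uxt*, *Ruvbl1*, *Ruvbl2* and *Rpap3*, and every probe that the array files listed under 1 of these names was taken. Of the 10 names, 8 were on the array, with 9 probes of 30367 in all (26269 gene names), and *Pfdn4* and *Vbp1* were not among the names of the probes. All 8 were well above background on all 16 arrays, so that none had to pass a filter on low values, and no spot was saturated.

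H35 is an established line from a rat liver tumour. RNA was read on one-color arrays, 4 biological replicates for each of 4 groups. CN-10 was a stable clone transfected with a plasmid carrying a negative control shRNA. shRNA4-18 and shRNA3-44 were stable clones, each made with a different shRNA plasmid against *Pdrg1*. shRNA3T, an uncloned pool, had received the plasmid of shRNA3-44 transiently and was enriched for cells that carried it. All groups, the control included, had been through lipofection and selection with G418, and each of the stable groups is 1 clone, so that a difference between clones and an effect of silencing cannot be told apart. By the authors' methods the stable clones were selected for longer and at a higher dose than enriched pools. Between shRNA3T and a clone, effects of selection and of cloning therefore cannot be told apart from others.

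Each slide held a single group, and that of shRNA4-18 was scanned on a different day, and an effect of the slide and one of the group cannot be told apart. The arrays of shRNA4-18 were also the dimmest (75th percentile of spot intensity from 1614 to 1946, against 2328 to 3692 on the other 12 arrays), and their part in the results was not tested. Hepatocyte genes such as *Alb*, *Ttr*, *Tf* and *Ahsg* were well above background on all 16 arrays, and *Apoa1* and *Hnf4a* on 15. Of the markers of other cell types, leukocyte *Ptprc* and endothelial *Pecam1* were so on 0 arrays and *Cd3e* on 1, but *Cd68* was on 15, endothelial *Cdh5* on 16, and *Col1a1*, *Acta2* and *Des* of stellate cells or fibroblasts on 16, 15 and 15, with log2 intensities of 8.78 at most. Their part in the results was not tested. In these bulk samples fewer cells of a kind and less RNA per cell cannot be told apart.

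Prefoldin is a cytosolic chaperone of several small subunits that takes hold of unfolded actin and tubulin and hands them to the CCT chaperonin. UXT and PDRG1 are related in fold to its subunits and belong to a prefoldin-like module, which also holds URI1 and the prefoldin subunits PFDN2 and PFDN6. That module joins the R2TP complex, in which the ATPases RUVBL1 and RUVBL2 are brought to HSP90 by the scaffold RPAP3, and which is known for assembling snoRNA ribonucleoproteins, RNA polymerases and kinases of the mTOR and ATM family.

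The probes that read the members are sequences of 60 bases, and those of 4 prefoldin and R2TP members whose values are described below are shown 5′ to 3′ as the array files give them, because the results rest on a single probe for all members but *Pfdn2*. Positions are on the rn4 build, without gene models of that build, for which reason exons and introns are not given. The *Pfdn6* probe (chr20:5097989-5098255, plus strand) spans 267 bases of genome with its 60 bases, and the 207 further bases are not part of the probe.

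Pfdn6 A_44_P498712: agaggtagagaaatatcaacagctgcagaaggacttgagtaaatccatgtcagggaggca
Pfdn2 A_64_P139624: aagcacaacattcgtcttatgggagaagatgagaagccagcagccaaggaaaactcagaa
Pfdn5 A_42_P788541: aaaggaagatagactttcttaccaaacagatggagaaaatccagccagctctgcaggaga
Rpap3 A_44_P1046471: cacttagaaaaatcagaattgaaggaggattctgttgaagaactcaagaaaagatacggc

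The leading *Pfdn2* probe lies at chr13:87262796-87262855 and a second *Pfdn2* probe (A_64_P027722) at chr13:87263230-87263289, both on the plus strand. The *Pfdn5* probe lies at chr7:141077982-141078041 on the plus strand and the *Rpap3* probe at chr7:136383048-136383107 on the minus strand. The other members were read at chr18:29044022-29044081 (*Pfdn1*, A_44_P253112, minus), chrX:12616440-12616499 (*Uxt*, A_64_P060231, minus), chr4:122591707-122591766 (*Ruvbl1*, A_64_P006673, plus) and chr1:95894030-95894089 (*Ruvbl2*, A_64_P019341, minus). *Pfdn5* was printed in 10 spots per array and the others in 1. The polyadenylation hexamer AATAAA, read on the strand of the probe, occurred in 1 of the 9 probes, that of *Ruvbl1*, and in 8.4% of all probes.

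RefSeq promoters on the GRCr8 build, from 250 bases before to 50 after the start, were at hand for 7 of the 8 members. They were searched on both strands for the GC box with its letters GGGCGG, the promoter word CCAAT, the TATA box as the letters TATAAA, the E-box in its form CACGTG and the core of ETS sites, CCGGAAG, and no match overlapped another in these windows. *Pfdn6* and *Uxt*, the members that fell in shRNA4-18, are shown, and were chosen after their values were seen. They were also the only members of the 7 with CCGGAAG or its reverse CTTCCGG. Of all promoters, 8.7% hold this word. That share is no matched background, because the word contains a CpG (a C followed by a G). The members have from 12 to 23 CpG per promoter, and the median of all promoters is 7. Whether the word has a part in the decreases was not tested. The capitals mark that word. No TATAAA and no CACGTG was found in the 7 windows (14.2% and 6.4% of all promoters), GGGCGG was found in 3 (33.1% of all) and CCAAT in 3 (37.5% of all).

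Pfdn6 chr20:4947594-4947893 plus: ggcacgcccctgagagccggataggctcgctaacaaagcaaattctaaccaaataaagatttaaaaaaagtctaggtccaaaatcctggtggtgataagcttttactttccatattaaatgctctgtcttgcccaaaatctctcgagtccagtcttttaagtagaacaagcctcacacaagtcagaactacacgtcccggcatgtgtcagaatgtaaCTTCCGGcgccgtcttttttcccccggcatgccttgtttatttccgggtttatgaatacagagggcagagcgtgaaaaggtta
Uxt chrX:3679654-3679953 plus: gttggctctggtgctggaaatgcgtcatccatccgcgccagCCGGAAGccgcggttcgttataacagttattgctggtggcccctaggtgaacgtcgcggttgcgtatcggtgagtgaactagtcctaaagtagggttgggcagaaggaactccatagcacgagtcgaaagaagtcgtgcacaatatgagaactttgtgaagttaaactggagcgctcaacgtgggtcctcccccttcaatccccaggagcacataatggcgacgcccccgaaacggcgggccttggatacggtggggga

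*Pdrg1* itself, the silenced gene, was read by 1 probe (A_43_P11144, chr3:143353382-143353441, minus). Its normalized log2 intensity was 13.41, 13.88, 13.51 and 13.77 on the 4 arrays of CN-10. It was 11.57, 13.33, 13.34 and 13.25 in shRNA4-18, 11.89, 12.86, 12.90 and 12.95 in shRNA3-44, and 12.39, 12.90, 12.97 and 12.90 in shRNA3T. All 12 silenced arrays lay below the lowest control array, and an exact permutation test gave a two-sided p of 0.0286 for every silenced group, as low as 4 arrays against 4 can reach. The mean level was 58.7%, 50.3% and 55.5% of that in CN-10, and the adjusted p of the limma fit did not pass 0.05 (0.129, 0.105 and 0.143), the first array of each silenced group lying apart below the other three and replicate 1 being the lowest array of CN-10 too (13.41). Without replicate 1 of shRNA4-18 the level in that group was 79.4% of the control, with a log2 fold change of -0.33 in place of -0.77 (adjusted p = 0.349, from 0.00647 to 0.349 over 30 alternatives). Without the same array the fit called *Pdrg1* in shRNA3-44 (-0.99, adjusted p = 0.0086, from 0.000306 to 0.438 over 30 alternatives) and in shRNA3T (-0.85, adjusted p = 0.0149, from 0.000212 to 0.558). With the replicate number as a block in the fit, *Pdrg1* was called in every silenced group (-0.77, -0.99 and -0.85), though the labels do not say what a number shares.

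Members were counted as changed where the limma fit over all probes gave a Benjamini-Hochberg adjusted p under 0.05 for the probe with the highest mean. In shRNA4-18 against CN-10, 4 of the 8 members changed, *Pfdn1* and *Pfdn5* upwards and *Pfdn6* and *Uxt* downwards, where 24.1% of all gene names changed (11.6% higher and 12.4% lower). In shRNA3-44, 2 of 8 changed, *Ruvbl1* and *Rpap3*, both downwards, against a background of 8.14% (3.45% higher and 4.69% lower). In shRNA3T, 2 of 8 changed, *Pfdn5* upwards and *Ruvbl1* downwards, against 12.2% (5.13% higher and 7.04% lower). These shares were not tested against the background. No member changed in all 3 comparisons by limma (1, *Pfdn5*, had an unadjusted p under 0.05 in each), 6 changed in at least 1, and *Pfdn6* in shRNA4-18 was the only one that also reached a 2-fold change (the share of all gene names that did was 6.15% in shRNA4-18, 1.47% in shRNA3-44 and 2.39% in shRNA3T). The median log2 fold change of the members was -0.15 in shRNA4-18, 0.10 in shRNA3-44 and -0.02 in shRNA3T, and that of all gene names was at 0.00, -0.01 and -0.01. The count in shRNA3-44 was 1 without replicate 1 or 3 of CN-10 or any replicate of shRNA3-44, and that in shRNA3T was 1 without any of the 12 arrays on which the call of *Pfdn5* rested (below). The direction of the calls moved with the scaling, as with the 75th percentile of each array 1 rose and 1 fell in shRNA4-18, 0 rose and 1 fell in shRNA3-44 and 0 rose and 1 fell in shRNA3T, while with median centring 2 rose and 0 fell in shRNA4-18 and 0 changed in the other groups. The 3 comparisons share the CN-10 arrays and are not independent.

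**Figure D1:**
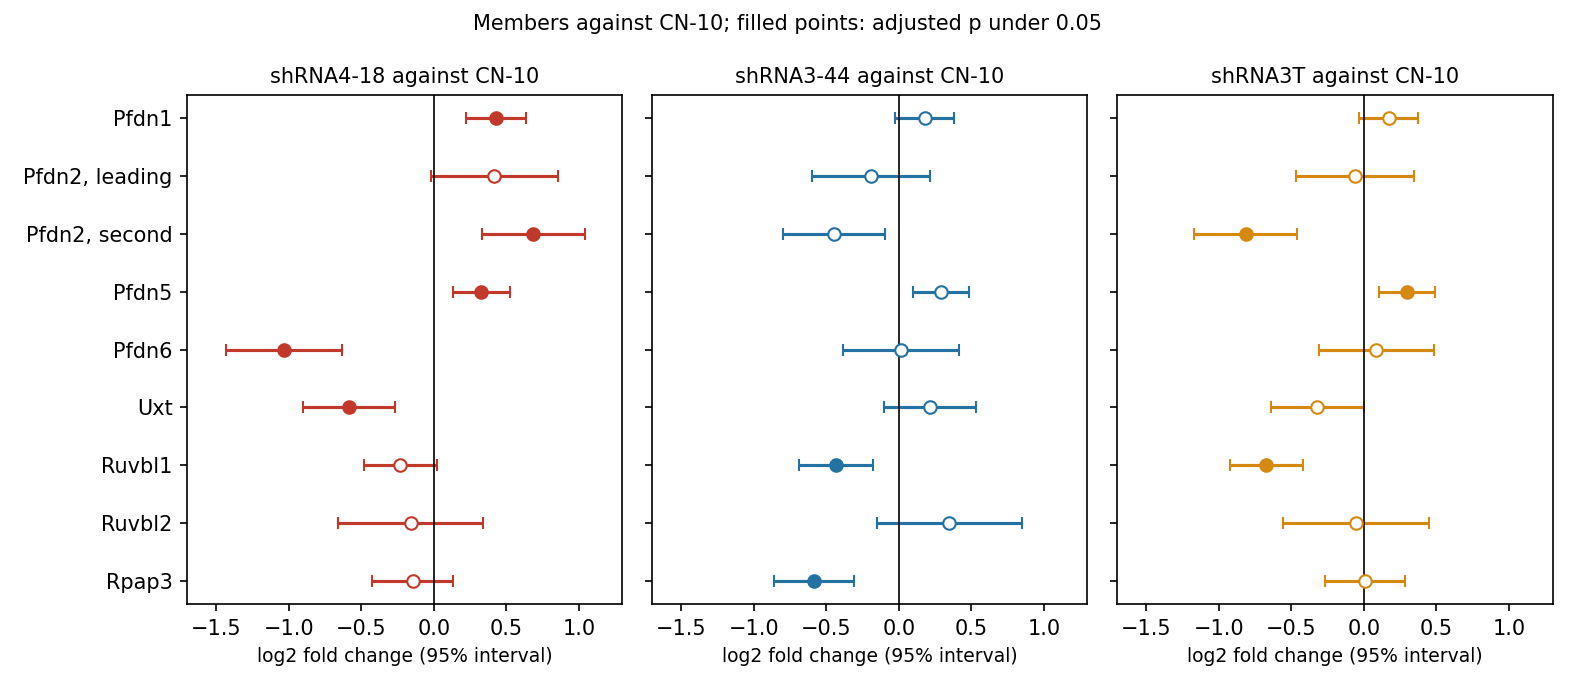
Log2 fold change of each member probe (rows) in the 3 silenced groups against CN-10 (panels), with the 95% interval of the limma fit as a bar and filled points for an adjusted p under 0.05. *Pfdn6* stands at -1.03 in shRNA4-18 and near 0 in the other 2 panels, *Ruvbl1* has the lowest of its 3 values in shRNA3T (-0.67), and *Rpap3* is below 0 with an interval clear of it only in the shRNA3-44 panel.

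Among the prefoldin subunits, *Pfdn6*, which encodes a beta-type subunit, had the largest difference from CN-10 of the members. Its log2 intensity was 13.13, 12.60, 13.12 and 12.68 in CN-10 and 11.92, 11.34, 12.24 and 11.90 in shRNA4-18, so that the highest of the silenced arrays lay below the lowest control array. In shRNA3-44 it was 13.20, 12.60, 12.97 and 12.82, and in shRNA3T 13.24, 12.97, 12.87 and 12.80, ranges that overlap that of CN-10. The level in shRNA4-18 was 48.8% of the control (log2 fold change -1.03, standard error 0.19, adjusted p = 0.000807 by limma). No change was called in shRNA3-44 (0.01, 95% interval from -0.38 to 0.41) or shRNA3T (0.09, from -0.31 to 0.48). shRNA4-18 also lay below both of these groups directly, by -1.05 against shRNA3-44 (adjusted p = 0.000795) and by -1.12 against shRNA3T (adjusted p = 0.000502, limma). The former was -0.42 with the 75th percentile scaling and -0.34 with median centring and lost its call in both (adjusted p from 9.32e-05 to 0.293 over 30 alternatives), and the latter kept its call in all 30. The size depended on the scaling, since with the processed signal scaled to each array's 75th percentile the fold change against CN-10 was -0.66, and with each array then centred on its median it was -0.43 and lost its call (adjusted p from 9.55e-05 to 0.153 over 30 alternatives).

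*Pfdn1*, another beta-type subunit, differed in the opposite direction. It was at 14.32, 14.58, 14.60 and 14.63 in CN-10 and at 14.95, 14.99, 14.98 and 14.93 in shRNA4-18, the latter all above the former and the tightest of the 4 groups. The arrays of shRNA3-44 (14.86, 14.57, 14.73 and 14.69) and shRNA3T (14.44, 14.83, 14.80 and 14.74) lay between or among them. The level rose to 135% of the control in shRNA4-18 (log2 fold change 0.43, standard error 0.10, adjusted p = 0.00402 by limma), and differences of 0.18 and 0.17 in shRNA3-44 and shRNA3T were not called (adjusted p of 0.344 and 0.33). The difference of 0.25 between shRNA4-18 and shRNA3-44 (adjusted p = 0.0762) passed, among the arrays left out in turn, only without replicate 1 of shRNA3-44 (0.30) or of shRNA3T (0.25). The call in shRNA4-18 was made in 29 of 30 alternatives, the exception being the deposited table without scaling, in which the fold change turned to -0.31 while genes that were well above background shifted as a whole by -0.55.

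*Pfdn5*, an alpha-type subunit also known as a MYC-binding protein, had a mean above CN-10 by similar amounts in every silenced group. The control arrays were at 13.42, 13.75, 13.46 and 13.65. shRNA4-18 was at 13.92, 13.74, 13.93 and 14.00, shRNA3-44 at 13.99, 13.78, 13.72 and 13.95, and shRNA3T at 13.75, 13.90, 13.87 and 13.95. The highest control array reached into the lower end of shRNA4-18 and shRNA3-44, and to 2 decimals it equalled the lowest array of shRNA3T. The log2 fold changes were 0.33, 0.29 and 0.30, each with a standard error of 0.09, and adjusted p was 0.0173, 0.0711 and 0.0489 by limma. The call in shRNA3T was kept in 6 of 30 alternatives and was lost without any 1 of 12 arrays, replicates 1, 3 and 4 of CN-10 and of shRNA4-18 and 2, 3 and 4 of shRNA3-44 and of shRNA3T (log2 fold change from 0.25 to 0.32), and that in shRNA4-18 was kept in 23 and was lost without replicate 1 (0.28) or replicate 3 (0.29) of CN-10. In shRNA3-44 the value came to 0.35 with a call once replicate 2 of CN-10 was left out (adjusted p = 0.0486, from 0.0249 to 1 over the alternatives). The silenced groups differed from each other by 0.04 at most (95% intervals within -0.20 and 0.23).

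*Pfdn2*, a further beta-type subunit, was read by a pair of probes that did not give the same picture. At the leading probe CN-10 was at 14.94, 15.38, 15.05 and 15.36, shRNA3-44 at 14.30, 15.12, 15.28 and 15.26 and shRNA3T at 14.87, 15.25, 15.20 and 15.15. In shRNA4-18 1 spot, on replicate 1, had been marked by the scanner software and was set aside, and the remaining 3 arrays were at 15.45, 15.67 and 15.67, above all others. None of the differences from CN-10 was called at this probe (0.42, -0.19 and -0.06, adjusted p of 0.169, 0.657 and 0.922). shRNA4-18 was above shRNA3-44 by 0.61 (adjusted p = 0.0464 by limma), a difference that fell to 0.38 without replicate 1 of shRNA3-44 and lost its call without any 1 of 12 arrays, all of shRNA4-18, replicates 1 and 2 of shRNA3-44 and 2, 3 and 4 of CN-10 and of shRNA3T (values from 0.38 to 0.68). It was called in 12 of 30 alternatives in all, and the call was also lost with the 75th percentile scaling (0.31), median centring (0.37), the table without scaling (0.01), array weights (0.47), 2 groups in the fit and the marked spots kept (0.36), with adjusted p from 0.0199 to 0.989 over the 30. Without replicate 1 of shRNA3-44 the excess of shRNA4-18 was called against CN-10 (0.42, adjusted p = 0.0264, from 0.0264 to 0.693 over 30 alternatives) and against shRNA3T (0.48, adjusted p = 0.0138, from 0.0138 to 0.657).

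At the second probe, which starts at position 804 of the transcript against 370 for the leading one, the groups stood apart. CN-10 was at 10.11, 9.98, 10.04 and 9.93, and shRNA4-18 at 11.00, 10.31, 10.79 and 10.72, all above it. shRNA3-44 at 9.92, 9.50, 9.45 and 9.42 and shRNA3T at 8.73, 9.44, 9.36 and 9.28 lay wholly below CN-10. The log2 fold change was 0.69 in shRNA4-18 (standard error 0.17, adjusted p = 0.00667), -0.45 in shRNA3-44 (adjusted p = 0.133) and -0.82 in shRNA3T (adjusted p = 0.00397, all by limma). Between the silenced groups shRNA4-18 was above shRNA3-44 by 1.13 (adjusted p = 0.000148) and above shRNA3T by 1.50 (adjusted p = 1.25e-05), and the latter call was made in all 30 alternatives. The rise in shRNA4-18 was called in 29 of them, the exception being the table without scaling (0.04), and the difference from shRNA3-44 in 29, with the same exception (0.60). The decrease in shRNA3T was called in 28, not with median centring (-0.41) or without scaling (-0.81). Both probes thus put shRNA4-18 highest, while the decrease in shRNA3T appeared at the second probe and not at the leading one. Which transcripts each probe reads was not tested.

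**Figure D2:**
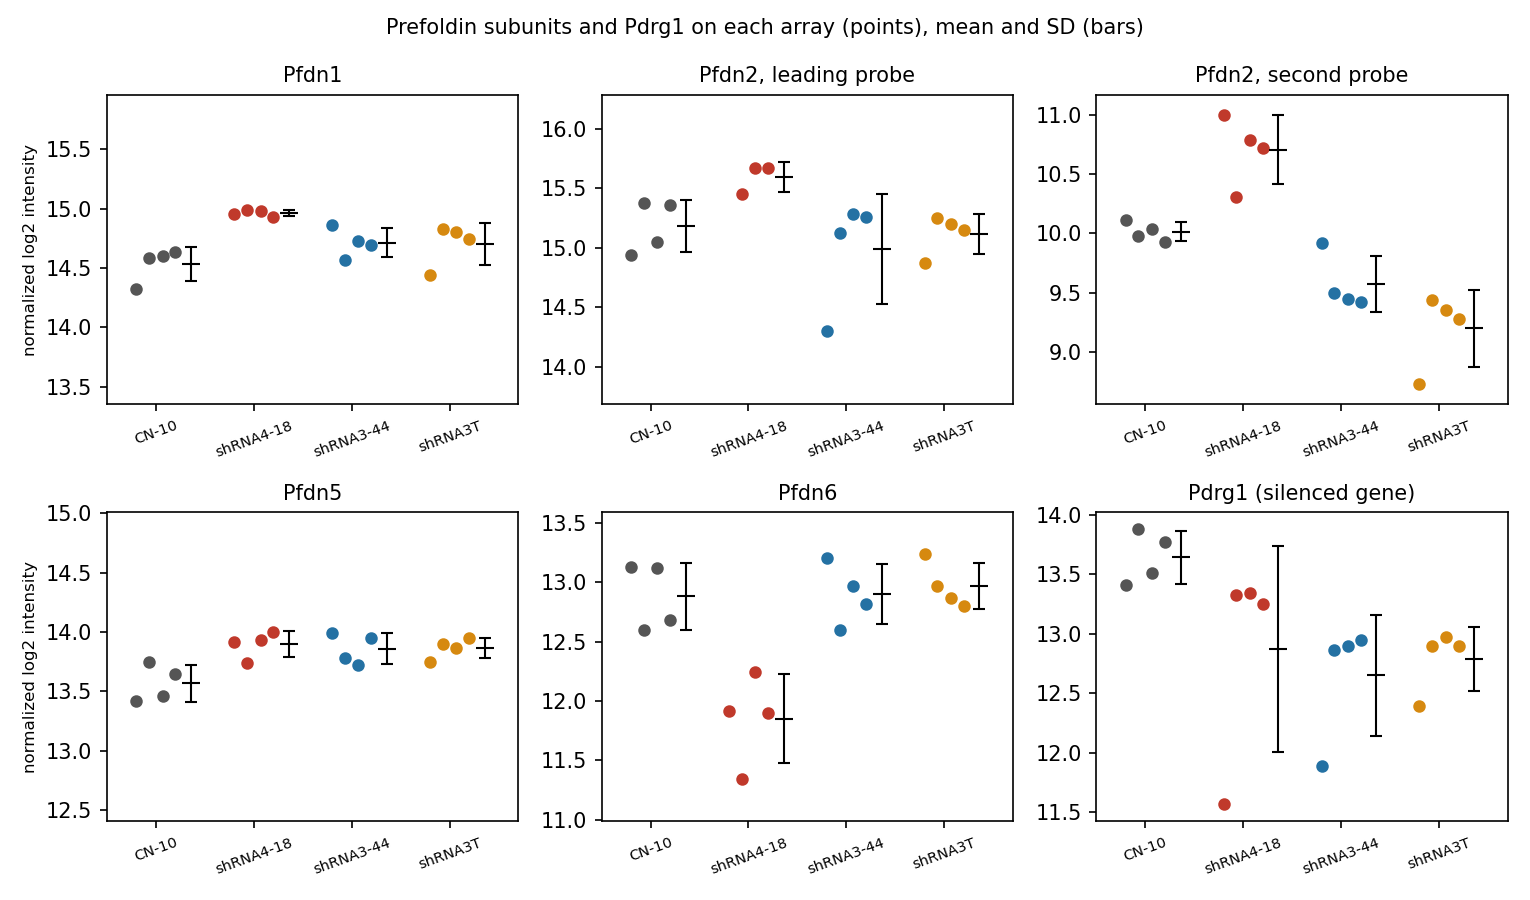
Normalized log2 intensity (vertical axis, offset between panels) of the prefoldin probes and of *Pdrg1* on each array (points) of the 4 groups (horizontal axis), with the group mean and SD as a bar. The shRNA4-18 arrays form the lowest group for *Pfdn6* and the highest for *Pfdn1* and both *Pfdn2* probes, and replicate 1 is the lowest point of *Pdrg1* in each silenced group.

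*Uxt*, which encodes a partner of PDRG1 in the prefoldin-like module, separated the clones. Its log2 intensity was 13.19, 13.09, 12.96 and 13.00 in CN-10 and 12.80, 12.55, 12.32 and 12.24 in shRNA4-18, without overlap. shRNA3-44 was at 13.60, 13.16, 13.13 and 13.20, with 2 arrays above the control range and 2 within it, and shRNA3T at 13.12, 12.75, 12.52 and 12.57, with 3 arrays below that range and 1 within it. In shRNA4-18 the level fell to 66.7% of CN-10 (log2 fold change -0.58, standard error 0.15, adjusted p = 0.0097), and no change was called in shRNA3-44 (0.21, adjusted p = 0.492) or shRNA3T (-0.32, adjusted p = 0.216, limma). In shRNA3T a decrease was called in 3 of 30 alternatives (adjusted p from 0.00391 to 0.854 over the 30). These were array weights (-0.43), leaving out the arrays numbered 1 (-0.40) and the replicate number as a block in the limma fit (-0.32, adjusted p = 0.0168). The groups made with the shRNA3 plasmid differed from each other, with the clone above the pool by 0.54 (adjusted p = 0.0315), and shRNA4-18 lay below shRNA3-44 by -0.80 (adjusted p = 0.00115). The contrast of clone and pool lost its call without any of 5 arrays (replicates 1 and 4 of shRNA3-44 and 2, 3 and 4 of shRNA3T, with values from 0.43 to 0.56), and with centring, no scaling or 2 groups in the fit. The difference of shRNA4-18 from shRNA3-44 was -0.51 with the 75th percentile scaling, with the call kept, -1.41 without scaling, and -0.43 with median centring, where the call was lost (adjusted p from 1.53e-05 to 0.0866 over 30 alternatives). With the 75th percentile scaling the difference of shRNA4-18 from CN-10 was -0.23 and was not called, and with median centring it was -0.01 (adjusted p from 0.000158 to 0.981 over 30 alternatives).

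*Ruvbl1*, an AAA+ ATPase that also works in the INO80, SRCAP and TIP60 chromatin complexes, was lower than CN-10 on most silenced arrays. CN-10 was at 16.22, 16.20, 16.06 and 16.03, shRNA4-18 at 16.14, 15.92, 15.85 and 15.68, shRNA3-44 at 15.74, 15.75, 15.61 and 15.68 and shRNA3T at 15.83, 15.39, 15.35 and 15.25. The arrays of shRNA3-44 and shRNA3T were all below the control, and those of shRNA4-18 overlapped it in 1 array. The log2 fold change was -0.67 in shRNA3T (62.7% of the control, adjusted p = 0.00141), -0.43 in shRNA3-44 (74.0%, adjusted p = 0.0355) and -0.23 in shRNA4-18 (adjusted p = 0.189), each with a standard error of 0.12 in the limma fit. shRNA4-18 lay above shRNA3T by 0.44 (adjusted p = 0.0148), a call that was made in 25 of 30 alternatives and was lost without replicate 4 of shRNA3T (0.37), with the 75th percentile scaling (0.34), with median centring (0.38), with 2 groups in the fit and without scaling (-0.25). By contrast, shRNA3-44 did not differ from shRNA3T past the threshold (0.24, adjusted p = 0.251). That difference was called in 3 of 30 alternatives, with array weights (0.32, adjusted p = 0.00434), without replicate 1 of shRNA3T (0.36, adjusted p = 0.0328) and without the arrays numbered 1 (0.35), the adjusted p running from 0.00434 to 1 over the 30. The call in shRNA3T was made in 28 of 30 alternatives, not with median centring (-0.28) or without scaling (-0.60). That in shRNA3-44 was made in 18, went without replicate 1, 2 or 3 of CN-10 or any replicate of shRNA3-44 (values from -0.46 to -0.40), and under the 75th percentile scaling the value was -0.05 and with median centring 0.10.

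*Ruvbl2*, the partner ATPase that forms mixed rings with RUVBL1, changed in none of the 6 comparisons between groups by limma (unadjusted p was under 0.05 in 1, shRNA4-18 against shRNA3-44). It was at 14.55, 14.59, 14.64 and 13.49 in CN-10, at 13.96, 14.62, 13.81 and 14.23 in shRNA4-18, at 14.95, 14.65, 14.57 and 14.49 in shRNA3-44 and at 14.07, 14.09, 14.45 and 14.45 in shRNA3T. The fourth array of CN-10 was the lowest of all 16. The log2 fold changes were -0.16, 0.35 and -0.05 in shRNA4-18, shRNA3-44 and shRNA3T, with 95% intervals from -0.66 to 0.34, from -0.15 to 0.85 and from -0.56 to 0.45. Without that array they were -0.44, 0.07 and -0.33 (adjusted p of 0.0952, 0.898 and 0.302, from 0.0593 to 1 over all alternatives), and shRNA4-18 then lay below shRNA3-44 with a call (-0.51, adjusted p = 0.0367, from 0.0182 to 0.963 over the alternatives).

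*Rpap3*, which carries the TPR domains that bind HSP90, was low in shRNA3-44. Its arrays there were at 10.03, 10.02, 10.04 and 9.63, below all arrays of the other groups. CN-10 was at 10.36, 10.67, 10.61 and 10.42, shRNA4-18 at 10.40, 10.21, 10.52 and 10.35, and shRNA3T at 10.87, 10.52, 10.43 and 10.28, 3 ranges that overlap. The level was 66.6% of the control in shRNA3-44 (log2 fold change -0.59, standard error 0.13, adjusted p = 0.011), against values of -0.15 in shRNA4-18 and 0.01 in shRNA3T that were not called (adjusted p of 0.485 and 0.988, limma). The clone was also below the pool made with the same plasmid by -0.59 (adjusted p = 0.00779). shRNA4-18 was above shRNA3-44 by 0.44 (adjusted p = 0.0238), a call lost without replicate 1 or 3 of shRNA4-18 or replicate 4 of shRNA3-44 (values from 0.34 to 0.43), with the 75th percentile scaling (0.28), with median centring (0.35) and without scaling (-0.11). Leaving out replicate 4 of shRNA3-44, its lowest array, gave -0.48 against CN-10 with the call kept. The calls against CN-10 and against shRNA3T were each made in 28 of 30 alternatives, not with median centring (-0.35 and -0.57) or without scaling (-0.71 and -0.73).

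**Figure D3:**
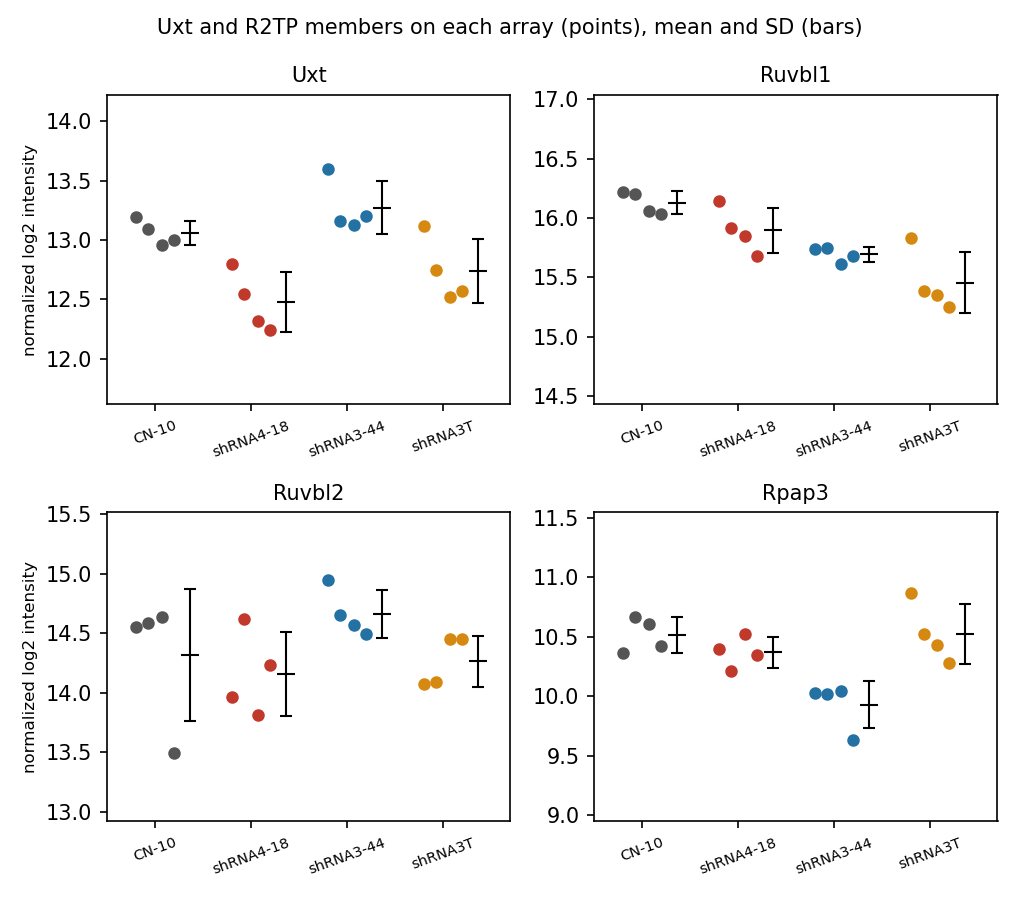
Normalized log2 intensity (vertical axis, offset between panels) of *Uxt*, *Ruvbl1*, *Ruvbl2* and *Rpap3* on each array (points) of the 4 groups (horizontal axis), with the group mean and SD as a bar. *Uxt* is lowest in shRNA4-18, *Ruvbl1* in shRNA3T and *Rpap3* in shRNA3-44, and the *Ruvbl2* ranges overlap apart from those of shRNA3-44 and shRNA3T.

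The order of the groups was therefore not the same from member to member. From low to high mean level it was shRNA4-18, CN-10, shRNA3-44 and shRNA3T for *Pfdn6*, of which the last 3 did not differ from each other past the threshold. For *Uxt* it was shRNA4-18, shRNA3T, CN-10 and shRNA3-44, with no neighbours apart by the test. For *Ruvbl1* it was shRNA3T, shRNA3-44, shRNA4-18 and CN-10, and again no neighbours differed by the test. For *Rpap3* shRNA3-44 was lowest, below each other group by the test, and no difference was called among the other 3. Between the silenced groups, 4 of 8 members changed in shRNA4-18 against shRNA3-44 (*Pfdn2*, *Pfdn6*, *Uxt* and *Rpap3*, with 22.5% of all gene names changed), 2 in shRNA4-18 against shRNA3T (*Pfdn6* and *Ruvbl1*, 20.5%) and 2 in shRNA3-44 against shRNA3T (*Uxt* and *Rpap3*, 10.9%). At the 2-fold limit the members were *Pfdn6* in each of the first 2 of these and 0 in the last, with 4.98%, 4.56% and 2.12% of all gene names. The count of 4 was 2 without replicate 1 or replicate 3 of shRNA4-18, the count of 2 in shRNA4-18 against shRNA3T was 1 without replicate 4 of shRNA3T, and that in shRNA3-44 against shRNA3T was 1 without any of the 5 arrays named for *Uxt*.

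**Figure D4:**
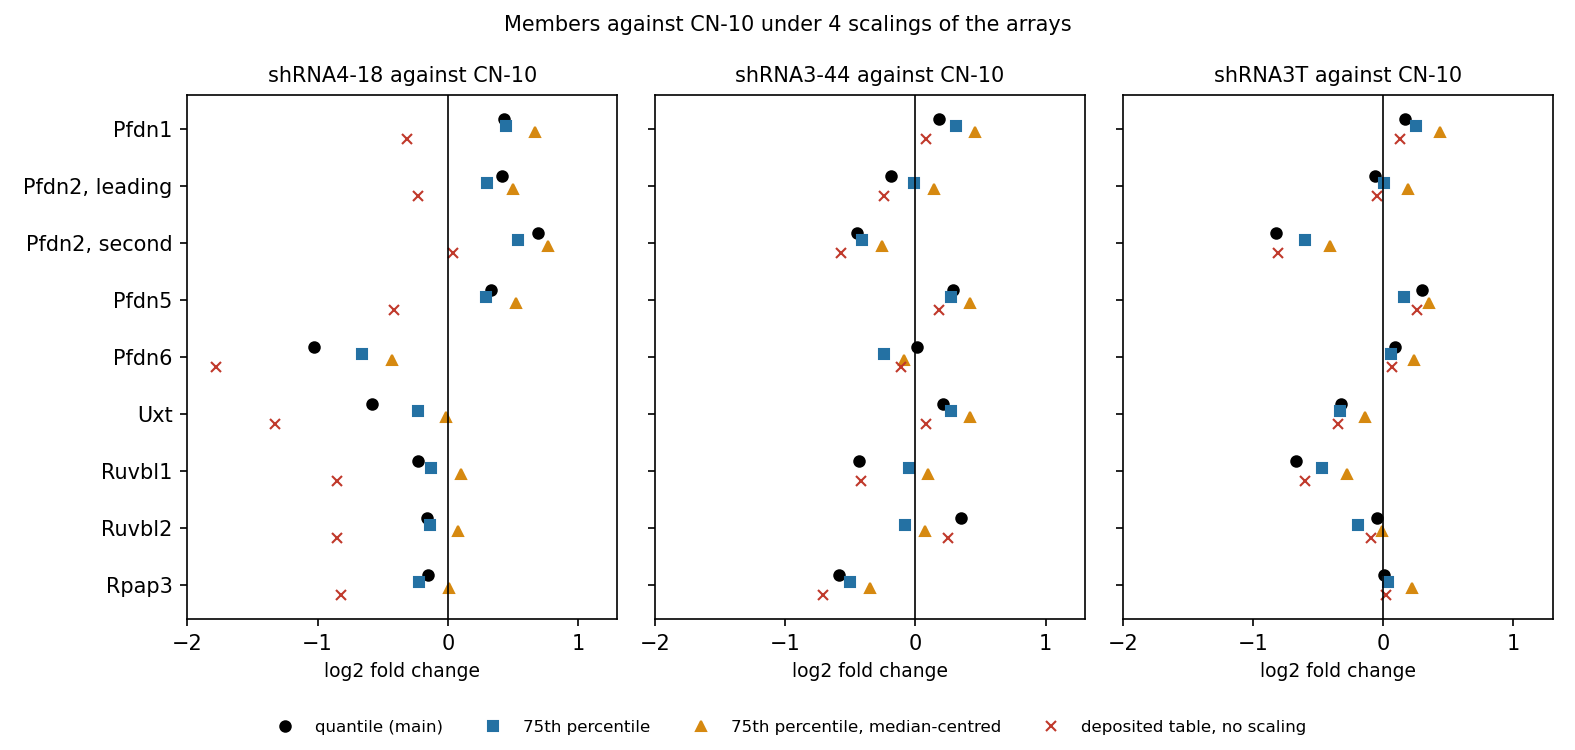
Log2 fold change of each member probe (rows) against CN-10 (panels, 1 per silenced group) under 4 ways of scaling the arrays (symbols). The unscaled deposited values lie furthest to the left in shRNA4-18, whose arrays were the dimmest, and *Pfdn6* stays below 0 there under each of the 4, from -1.78 to -0.43.

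The genes that act with the members were taken as 5 lists. In each list the leading probe was counted as above, and the share of all gene names that rose or fell was 11.6% and 12.4% in shRNA4-18, 3.45% and 4.69% in shRNA3-44 and 5.13% and 7.04% in shRNA3T. The first held further subunits and adaptors of the R2TP and prefoldin-like complex, with 13 of 18 on the array. In shRNA4-18, 2 rose (*Znhit3*, 0.54, and *Rpap2*, 0.58) and 3 fell (*Tti1*, -1.44, *Znhit2*, -0.58, and *Telo2*, -0.57). *Tti1* and *Telo2* encode parts of the TTT complex, which brings kinases of the mTOR family to R2TP, and *Znhit2* and *Znhit3* encode zinc finger HIT proteins that take part in such assembly. The 5 were named after their values were seen. In shRNA3-44 only *Nufip1*, a snoRNP assembly factor, passed (0.83, adjusted p = 0.0407), with the highest mean over the 3 comparisons, and in shRNA3T only *Polr2e*, a subunit shared by the RNA polymerases (-0.48, adjusted p = 0.0158, limma), named after its value was seen. By unadjusted p under 0.05, 1 was lower in shRNA3-44 and 0 were higher in shRNA3T. *Pdrg1*, with the lowest mean of the list, is given above. The median log2 fold change of the list was -0.19, -0.12 and -0.16. In shRNA4-18 it was 0.02 with median centring (3 rose and 1 fell), 0.03 without replicate 1 of CN-10 and -0.01 without replicate 3 of shRNA4-18, and 1 rose without either of these, replicate 2 of CN-10 or replicate 4 of shRNA4-18. In shRNA3-44, 0 rose with the 75th percentile scaling, with centring, and without replicate 2, 3 or 4 of CN-10 or of shRNA3T, any replicate of shRNA3-44 or replicate 4 of shRNA4-18, and 1 fell without replicate 1 of shRNA4-18. In shRNA3T, 2 fell without replicate 2 of CN-10 or replicate 1 of shRNA4-18 or with 2 groups in the fit, and with array weights 1 rose and 3 fell there and 1 rose and 1 fell in shRNA3-44.

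The second list held proteins of snoRNA ribonucleoproteins and large kinases, taken as clients that R2TP helps to assemble, with 13 of 16 on the array. The kinases on the array were *Mtor* (0.10, 0.07 and 0.09), *Atm* (-0.34, 0.06 and -0.17) and *Trrap* (-0.14, 0.11 and 0.38). None of them was called against CN-10, so the counts come from the snoRNA ribonucleoprotein genes. By limma, 0 rose and 5 fell in shRNA4-18, 1 rose and 2 fell in shRNA3-44, and 0 rose and 7 fell in shRNA3T, and 0 were higher in shRNA4-18 or shRNA3T at an unadjusted p under 0.05 either. Of all gene names, 12.4%, 4.69% and 7.04% fell. The 7 became 3 without replicate 2 of CN-10 or replicate 4 of shRNA3T and 4 without replicate 1 or 4 of CN-10, and the 2 became 1 without replicate 1, 3 or 4 of CN-10 or 2, 3 or 4 of shRNA3-44. *Fbl*, the methyltransferase of box C/D particles, fell by 0.93 in shRNA4-18 (adjusted p = 0.000219) and by 1.17 in shRNA3T (adjusted p = 6.75e-05) and was at -0.09 in shRNA3-44 (adjusted p = 0.805). *Dkc1*, the pseudouridine synthase of box H/ACA particles, rose in shRNA3-44 (0.90, adjusted p = 7.25e-05) and was at -0.06 and 0.09 in the other groups. Chosen after their values were seen, *Nop10* (-0.36, -0.32 and -0.60) and *Nhp2l1* (-0.47, -0.53 and -0.45) were the 2 genes of the list that passed in all 3 comparisons, the adjusted p of *Nhp2l1* in shRNA3T being 0.0489. The medians were -0.34, -0.09 and -0.40. With the 75th percentile scaling the counts that fell were 5, 0 and 2, and with median centring 2, 0 and 2.

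The CCT chaperonin, to which prefoldin passes its clients, was on the array with all 8 subunits, and by limma 1 fell in each comparison, *Cct4* in shRNA4-18 (-1.25) and *Cct3* in shRNA3-44 (-0.45) and shRNA3T (-0.60), both named after their values were seen. No subunit rose, and 0 were higher at an unadjusted p under 0.05. The 1 became 2 in shRNA4-18 without replicate 2 of CN-10, in shRNA3-44 without replicate 1 or 2 of shRNA4-18 or 1 of shRNA3T, and in shRNA3T without replicate 1 of shRNA3-44 or 1 or 4 of shRNA4-18. With array weights 3 fell in shRNA3-44 and 3 in shRNA3T. *Cct5* had the highest mean of the list (-0.38, 0.34 and 0.33) and was not called. *Tcp1* had the lowest (-0.51, -0.27 and -0.33), but its value in shRNA4-18 rests on 1 array and that in CN-10 on 3, the other spots being marked as outliers by the scanner software, so that no test of shRNA4-18 is read from it. The medians of -0.17, -0.26 and -0.25 turned to 0.06 in shRNA4-18 with the 75th percentile scaling and were 0.29, 0.12 and 0.05 with median centring.

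Of actins, tubulins, tubulin folding cofactors and phosducin-like partners of CCT, 19 of 20 were on the array. In shRNA4-18, 3 rose and 8 fell, in shRNA3-44, 1 rose and 0 fell, and in shRNA3T, 0 rose and 7 fell by limma, where 2 were lower in shRNA3-44 and 0 higher in shRNA3T at an unadjusted p under 0.05. Of all gene names, 11.6% rose and 12.4% fell in shRNA4-18, 3.45% and 4.69% in shRNA3-44, and 5.13% and 7.04% in shRNA3T. In shRNA3-44, 1 fell without replicate 4 of CN-10 or 1 or 4 of shRNA4-18, and 2 with array weights. *Tubb6*, a beta-tubulin, fell by 1.45 in shRNA4-18 (adjusted p = 1.52e-05) and by 0.88 in shRNA3T (adjusted p = 0.00247) and was at 0.21 in shRNA3-44 (adjusted p = 0.56). *Pdcl3*, a phosducin-like partner of CCT, rose in shRNA4-18 (1.01, adjusted p = 0.00162, with 3 arrays in that group) and was at 0.48 and 0.35 without a call in the others. The medians were -0.39, -0.07 and -0.24, and under the 75th percentile scaling 2 rose and 5 fell in shRNA4-18, with 0 rising and 4 falling in shRNA3T. Centred on the array median, 3 rose and 2 fell in shRNA4-18, 1 fell in shRNA3T, and the medians were 0.05, 0.23 and -0.23. Tubulin genes are near copies of each other in sequence, so that signal shared between them is uncertain.

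In the chromatin complexes that hold RUVBL1 and RUVBL2 (INO80, SRCAP and TIP60), 17 of 20 genes were on the array. Of all gene names, 11.6% rose and 12.4% fell in shRNA4-18, 3.45% and 4.69% in shRNA3-44, and 5.13% and 7.04% in shRNA3T. *Vps72*, which binds the histone variant H2A.Z, rose in shRNA4-18 (0.80, adjusted p = 0.00523), 2 genes fell there, 0 passed in shRNA3-44 and 1 fell in shRNA3T (limma). In shRNA4-18, 1 fell without any replicate of CN-10, replicate 2 of shRNA3-44, 3 of shRNA4-18 or 3 or 4 of shRNA3T, and 0 fell without replicate 2 of shRNA4-18. In shRNA3T, 0 fell without replicate 1, 2 or 3 of CN-10 or 2, 3 or 4 of shRNA3T, 2 fell without replicate 1 of shRNA3T, and with array weights 4 fell there and 1 in shRNA3-44. *Ino80*, the ATPase that gives the first complex its name, had the lowest mean of the list (-0.24, -0.45 and -0.51) and was not called (lowest adjusted p = 0.0845). At an unadjusted p under 0.05, 1 was lower in shRNA3-44. The medians were -0.19, 0.04 and -0.18, and with median centring 0.18, 0.17 and 0.01.

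**Figure D5:**
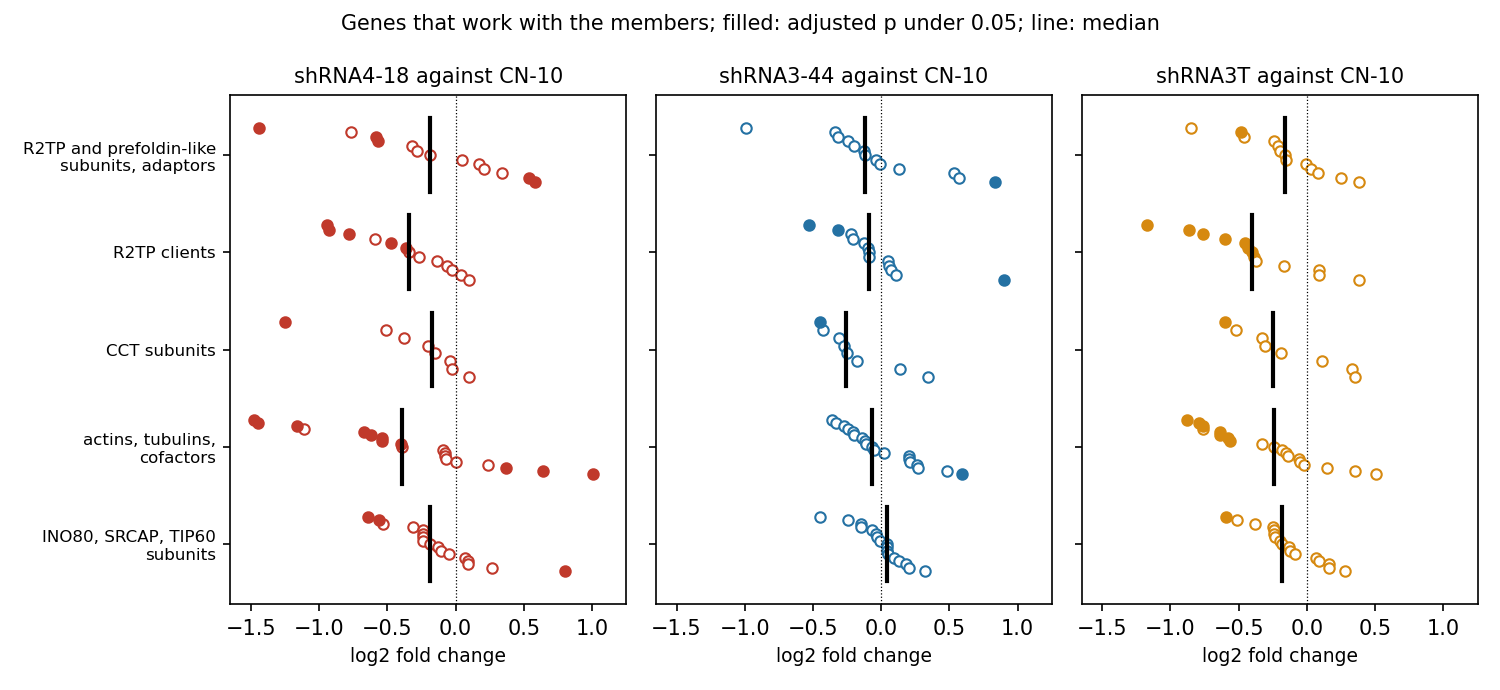
Log2 fold change of the genes of 5 lists (rows) in the 3 silenced groups against CN-10 (panels), each point a gene, filled where the adjusted p was under 0.05, with a line at the list's median. Most filled points of the R2TP clients and of the actin and tubulin list lie left of 0 in the shRNA4-18 and shRNA3T panels, and few points are filled in the shRNA3-44 panel.

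The genes most like the 3 members whose group means spread widest were found by Pearson's r over the 16 arrays among 9714 other genes well above background on all of them. As the arrays fall into 4 groups and share their normalization, r is given as a description. For *Pfdn6* (group means 1.12 apart) these were *Ugt2b36* (0.971), *Clpx* (0.970) and *Fmo1* (0.954). For *Uxt* (0.80 apart) they were ENSRNOT00000025560 (0.963), *Slc41a3* (0.956) and *Fkbp2* (0.945). For *Ruvbl1* (0.67 apart) they were *Rrp9* (0.956), RGD1563348 (0.950) and *Rabl5* (0.947).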

How the data were processed

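Total RNA of 16 cultures was hybridised to one-color Agilent rat arrays, and the authors deposited scanner files of the Feature Extraction 10.7.3.1 software with intensity values per spot. The value table of the series, deposited by the authors as a score whose decimal points were missing, matched, once these were restored, the log2 of the normexp-corrected median signal within 4e-11, with no scaling between arrays. Mean spot intensities were corrected with normexp (offset 50), control spots were dropped, arrays were quantile normalized, spots marked as outliers were set aside, and spots of a probe were averaged in limma 3.58.1 (R 4.3.3). One mean per group was fitted over all 16 arrays, and p-values were adjusted by Benjamini-Hochberg over all probes. The probe with the highest mean stood for a gene. The script was tested on simulated data. Members and lists were chosen with earlier results of these data known. From each list the genes with the lowest and the highest mean over the comparisons with CN-10 were named. Replicates were compared as labelled, and nothing more is known of their cultures. Same-numbered arrays tended to deviate together (median r of 0.154, against -0.0315 for arrays of other numbers), but not in every pair. The labels do not say what a number shares, so no pairing was used in the main fit. Exons were not assigned, and proteins were not used here.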

Additional observations from a re-analysis of the deposited data

Results flagged for a closer look

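In 9 cases 1 array stood apart within their group by Dixon's test, which chance would give in about 1 in 20 of the 43 groups tested. In shRNA3-44, replicate 1 was low at the leading *Pfdn2* probe (14.30) and high at the second one (9.92) and for *Uxt* (13.60), and replicate 4 was low for *Rpap3* (9.63). Replicate 4 of CN-10 was low for *Ruvbl2* (13.49). *Pdrg1* was low in replicate 1 of all silenced groups (11.57 in shRNA4-18, 11.89 in shRNA3-44 and 12.39 in shRNA3T), and LOC681825, described below, was high in replicate 1 of shRNA3T (8.93).

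The silenced groups differed from each other, by the limma test of these groups, for 5 members. For *Pfdn6* shRNA4-18 differed by -1.05 from shRNA3-44 and by -1.12 from shRNA3T. For *Uxt* shRNA4-18 differed by -0.80 from shRNA3-44, and shRNA3-44 by 0.54 from shRNA3T. The leading *Pfdn2* probe differed by 0.61 between shRNA4-18 and shRNA3-44, and the second by 1.13, and by 1.50 between shRNA4-18 and shRNA3T. *Ruvbl1* differed by 0.44 between shRNA4-18 and shRNA3T. *Rpap3* differed by 0.44 between shRNA4-18 and shRNA3-44 and by -0.59 between shRNA3-44 and shRNA3T. As each group lay on 1 slide, slide and group cannot be told apart in any of them.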

How the results depend on the processing

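Over the 54 results of single member probes and 30 alternatives, sign and side of the threshold were kept in 1427 of 1620 cases, a call was lost in 92 and gained in 28 with the sign kept, and the sign turned in 67 cases with no call on either side and in 6 with a call. The 6 were in the deposited table without scaling for *Pfdn1* (-0.31) and *Pfdn5* (-0.41) in shRNA4-18 against CN-10, and, in shRNA4-18 against shRNA3T, for *Pfdn5* (-0.68) and *Ruvbl1* (-0.25), and for *Rpap3* in shRNA4-18 against shRNA3-44 (-0.11). The last was *Ruvbl1* in shRNA3-44 against CN-10 with median centring (0.10). The cause was not tested. Against CN-10 the median of all probes lay at 0.20, -0.04 and -0.23 (shRNA4-18, shRNA3-44, shRNA3T) with the 75th percentile scaling, at 0.43, 0.10 and -0.04 after centring, and at 0.15, -0.04 and -0.07 without scaling. Genes well above background on all arrays, as the members were, shifted in the same order by 0.05, 0.27 and -0.55 in shRNA4-18, 0.02, 0.16 and -0.11 in shRNA3-44 and 0.01, 0.19 and 0.01 in shRNA3T. Taken relative to the shift of such genes in its own comparison and setting, the 6 turned values were 0.24, 0.13, -0.13, 0.30, 0.30 and -0.06 in the order given, and each had the sign of its value relative to the shift under quantile normalization.

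Counts of changed members moved as follows. In shRNA4-18 against CN-10 the count of 4 (2 higher, 2 lower) became 2 with the 75th percentile (1 and 1), 2 with centring (2 higher, 0 lower) and 1 with the 2-fold limit, 3 with 2 groups in the fit or the median of spots, and 3 to 5 on leaving out 1 array, and without scaling 0 rose and 4 fell. In shRNA3-44 against CN-10 the count of 2 became 1 with the 75th percentile, an offset of 16 or an intensity trend, and 0 with centring, no scaling or the 2-fold limit, and 3 with outlier spots kept (1 to 2 on leaving out 1 array). In shRNA3T against CN-10 the count of 2 became 1 with the 75th percentile, no background correction, offset 16, the quantile-normalized deposited table, the filter on dim probes, 2 groups in the fit, the trend or the median of spots, 0 with centring, no scaling or the 2-fold limit, and 4 with array weights (1 to 2 on leaving out 1 array). In shRNA4-18 against shRNA3-44 the count of 4 became 1 with the 75th percentile or the 2-fold limit and 0 with centring (2 to 5). In shRNA4-18 against shRNA3T the count of 2 became 1 with the 75th percentile, centring or the 2-fold limit and 4 without scaling (1 to 3). In shRNA3-44 against shRNA3T it became 0 with centring, no scaling or the 2-fold limit and 1 with 2 groups in the fit (1 to 3). Leaving out the arrays numbered 1 gave 5, 2, 2, 5, 3 and 3 members in the same order.

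*Pdrg1* gained a call in shRNA4-18 with the 75th percentile (-0.82), no scaling (-1.52), the replicate block (-0.77) and without the arrays numbered 1 (-0.41). It gained one in shRNA3-44 with 2 groups in the fit (-0.99), array weights (-0.84), the block (-0.99) and without the arrays numbered 1 (-0.82), and in shRNA3T with the 75th percentile (-0.98), 2 groups (-0.85), weights (-0.77), the block (-0.85) and without the arrays numbered 1 (-0.79). On leaving out 1 array it ranged from -0.92 to -0.33 in shRNA4-18 (the latter without its replicate 1), from -1.09 to -0.74 in shRNA3-44 and from -0.93 to -0.72 in shRNA3T, with a call, in the last 2 groups, only without replicate 1 of shRNA4-18. The replicate block gave 4, 2, 2, 4, 3 and 2 changed members. In shRNA3T against CN-10, 1 of the 2 was another gene than without it, as *Pfdn5* lost its call (0.30, adjusted p = 0.0519) and *Uxt* gained one (-0.32, adjusted p = 0.0168), and *Uxt* also gained one in shRNA4-18 against shRNA3T (-0.26, adjusted p = 0.0297). Of the partner lists, in shRNA4-18, shRNA3-44 and shRNA3T, the block gave 4, 1 and 3 adaptors that fell (3, 0 and 1 without it), 2, 1 and 2 CCT subunits (1, 1 and 1) and 2, 1 and 1 chromatin subunits (2, 0 and 1). Same-numbered arrays correlated from -0.125 to 0.498 in their deviations (median 0.154, 15 of 24 above 0.1). Arrays of other numbers correlated from -0.457 to 0.325 (median -0.0315, 12 of 72 above 0.1). Of 16 arrays, 5 correlated best with their own number in every other group. The labels do not say what a number shares, and whether the block pairs cultures was not tested. Array number, 4 per group, limits the precision, and the exact permutation test cannot go below 0.0286.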

Other observations

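LOC681825 (A_64_P089460), described in the array files as similar to prefoldin subunit 3, is not among the members and was not counted as *Vbp1*. It was chosen after its values were seen. Its log2 intensity was 7.93, 7.98, 7.97 and 7.97 in CN-10 and 9.05, 9.45, 8.90 and 8.60 in shRNA4-18. In shRNA3-44 it was at 9.45, 9.22, 9.07 and 9.27 and in shRNA3T at 8.93, 8.48, 8.53 and 8.48. All 12 silenced arrays lay above CN-10, by 1.03 (adjusted p = 0.000126), 1.29 (adjusted p = 7.25e-05) and 0.64 (adjusted p = 0.0106) on the log2 scale by limma. The call was made in 29, 30 and 28 of 30 alternatives (adjusted p up to 0.0654, 0.0196 and 0.261). In the table without scaling it was lost in shRNA4-18 (0.67) and shRNA3T (0.65), and in shRNA3T also without the arrays numbered 1 (0.52), while with median centring the values were 1.47, 1.95 and 1.10. The probe has no position in the files, and which transcript it reads was not tested.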
